A study of Homo sapiens with 32 samples.

Results

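The 10 genes described here are cytoskeletal and matricellular target genes of the transcription factors SRF and YAP-TEAD, namely ACTB, ACTG1, VCL, TPM1, MYL9, FHL2, CYR61, CTGF, ANKRD1 and FLNA. They were taken by symbol from the count tables for 6 h and 24 h, where each matched 1 of 57773 rows. The rule uses symbols alone, but the genes were proposed with earlier results of these data known. The cells were HEK293, an established human embryonic kidney cell line, and in every group they had been transfected transiently with a plasmid that expresses the human angiotensin II receptor type 1 (AT1R). After a change to serum-free DMEM they received no stimulus (control), 1 nM angiotensin II (AII), 10 µg/l epidermal growth factor (EGF) or both agents (AII+EGF), and total RNA was sequenced after 6 h or 24 h. Each condition had 4 libraries at each time, except that 3 were analysed for AII+EGF after 24 h. Transient expression leaves cells with unequal amounts of receptor, and no group without the receptor plasmid was part of the comparison. The labels do not say whether libraries of a condition came from separate cultures, so the tests measure the spread between libraries, which may be technical.

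SRF binds the CArG box, a DNA element in the promoters of many genes for actin and for proteins that bind actin. When G-actin is incorporated into filaments, the MRTF cofactors are released from it, enter the nucleus and activate SRF on cytoskeletal genes, whereas the ternary complex factors carry ERK signals to SRF on immediate early genes. YAP and TAZ work with the TEAD factors, which bind the motif GGAATG, and they enter the nucleus when cells spread. CYR61, CTGF and ANKRD1 are the usual readouts of YAP-TEAD activity. The actins, VCL, TPM1, MYL9, FHL2 and FLNA are usual readouts of MRTF-SRF. AT1R is a G protein-coupled receptor, and the EGF receptor acts mainly through Ras and ERK.

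The promoter sequences below show where these motifs stand, because the comparisons are about genes that the 2 factors are known to control. RefSeq windows of 250 bases before the transcription start were found for 7 of the 10 genes. ACTB, MYL9 and CYR61 had no entry in the table used. Both strands were searched for the CArG box and for GGAATG, whose reverse complement is CATTCC, and in these genes no CArG box overlapped a GGAATG. Of all 35116 windows of this length, 1.16% held a CArG box and 11.9% held GGAATG. A CArG box stood in the windows of 3 genes. Capitals mark the motif, and each line is written 5′ to 3′ on the strand of the gene, with coordinates of GRCh37 found by matching the RefSeq sequence (from the GRCh38.p14 table) to that build.
ACTG1, chr17:79479900-79479929, minus strand, CArG box 94 bases before the start, inside the annotated gene but in no exon: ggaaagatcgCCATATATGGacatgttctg
FLNA, chrX:153603077-153603106, minus strand, 94 bases before the start, upstream of the gene and in an exon of the opposite-strand gene with identifier ENSG00000285018: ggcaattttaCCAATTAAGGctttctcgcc
FHL2, distal start, chr2:106055052-106055081, minus strand, 101 bases before it, upstream of the gene: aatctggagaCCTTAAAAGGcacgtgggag
FHL2, internal start, chr2:106015548-106015577, minus strand, 59 bases before it, in an FHL2 exon: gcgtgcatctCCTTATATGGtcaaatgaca

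GGAATG stood in the windows of 4 genes, of which CTGF had 3 copies and ANKRD1 had 2. The TPM1 window held neither motif, which says only that these letters are not in that window.
CTGF, chr6:132272592-132272691, minus strand, copies 169, 104 and 95 bases before the start, upstream of the gene: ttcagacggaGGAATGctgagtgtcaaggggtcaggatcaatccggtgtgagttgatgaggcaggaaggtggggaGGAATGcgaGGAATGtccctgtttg
ANKRD1, chr10:92680957-92681074, minus strand, copies 220 and 128 bases before the start, upstream of the gene: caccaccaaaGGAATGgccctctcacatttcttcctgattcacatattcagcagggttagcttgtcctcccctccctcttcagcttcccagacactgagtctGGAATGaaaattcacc
VCL, chr10:75757693-75757718, plus strand, 171 bases before the start, inside the annotated gene but in no exon: ccctcccttaGGAATGggggaggggc
FHL2, a further internal start, chr2:106016136-106016161, minus strand, 27 bases before it, inside the annotated gene but in no exon: gcccgggcttGGAATGtgggaggcac

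The 16 libraries of 6 h held 3881841 to 8540815 counts, of which 81.4% to 84.7% fell on protein-coding genes. The 15 libraries of 24 h were deeper (6646227 to 33070903 counts) but only 20.8% to 63.4% of their counts were protein-coding, and U1 small nuclear RNA genes took 8.90% to 57.2% of them, against 0.0314% to 0.300% after 6 h. The biological coefficient of variation fitted by edgeR was 10.6% after 6 h and 29.1% after 24 h, so the 6 h comparisons are the more precise. The HEK293 markers VIM, NEFL and NEFM were high after 6 h (259 to 320 FPM for VIM, counts per 1000000 of the TMM-scaled library size), while KRT8 reached 15.4, KRT18 8.34 and PAX2 1.15 FPM. Of the 5 HEK293 markers tested, NEFM rose after EGF (0.60, FDR = 0.000400, edgeR) and NEFM (0.73, FDR = 3.27e-05) and KRT18 (0.91, FDR = 0.0187) rose after AII+EGF at 6 h, and NEFM after EGF at 24 h (1.16, FDR = 0.00102), and their part in the results was not tested. Of the smooth muscle markers, MYH11 lay between 10.4 and 21.2 FPM and DES, ACTG2 and MYOCD at or under 0.782 FPM. Of the fibroblast markers, COL1A1 lay between 10.8 and 30.1 FPM, COL1A2 had no count in any 6 h library, and DCN and LUM stayed at or under 0.460 FPM, as did the blood markers PTPRC and HBB. AGTR1, which encodes AT1R, was at 1089 ± 106 FPM in control, 1379 ± 92.6 after AII, 1090 ± 94.0 after EGF and 1487 ± 75.5 after AII+EGF (SD, n = 4). AGTR1 rose after AII+EGF against control by 0.45 on the log2 scale (FDR = 0.000498, edgeR). After AII the difference was 0.34 (SE 0.076, unadjusted p = 0.000173, FDR = 0.987, edgeR). The AII libraries (1309 to 1505 FPM) lay above all control libraries (944 to 1183 FPM), as 0.978% of all genes did. AII+EGF against EGF gave 0.448 for AGTR1 (FDR = 0.0930, edgeR). The part of this in the results below was not tested.

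The genes spanned more than 3 orders of magnitude per length in the 6 h control libraries, from γ-actin to the regulatory light chain. On the scale of FPM per kilobase of annotated exon, ACTG1 stood at 296 ± 30.5, ACTB at 256 ± 36.0, FLNA at 126 ± 14.9 and VCL at 15.03 ± 1.16 (SD, n = 4). FHL2 followed with 3.76 ± 0.626, CYR61 with 2.32 ± 0.0803, TPM1 with 2.25 ± 0.378 and CTGF with 1.15 ± 0.475. ANKRD1 (0.396 ± 0.314) and MYL9 (0.196 ± 0.154) were lowest. The libraries of ACTG1 and ACTB overlapped, as did those of CYR61 and TPM1, of CTGF and ANKRD1, and of ANKRD1 and MYL9, so the order of these neighbours is not resolved. MYL9, the light chain of smooth muscle and non-muscle myosin, had 0 to 5 counts per library after 6 h and 0 to 10 after 24 h, and failed the filter on low counts at both times. ANKRD1, a YAP target of heart and muscle, had 0 to 8 counts after 6 h and failed the filter there. The filter kept 8 of the 10 genes after 6 h and 9 after 24 h, of 18618 and 22174 genes in all.

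**Figure D1:**
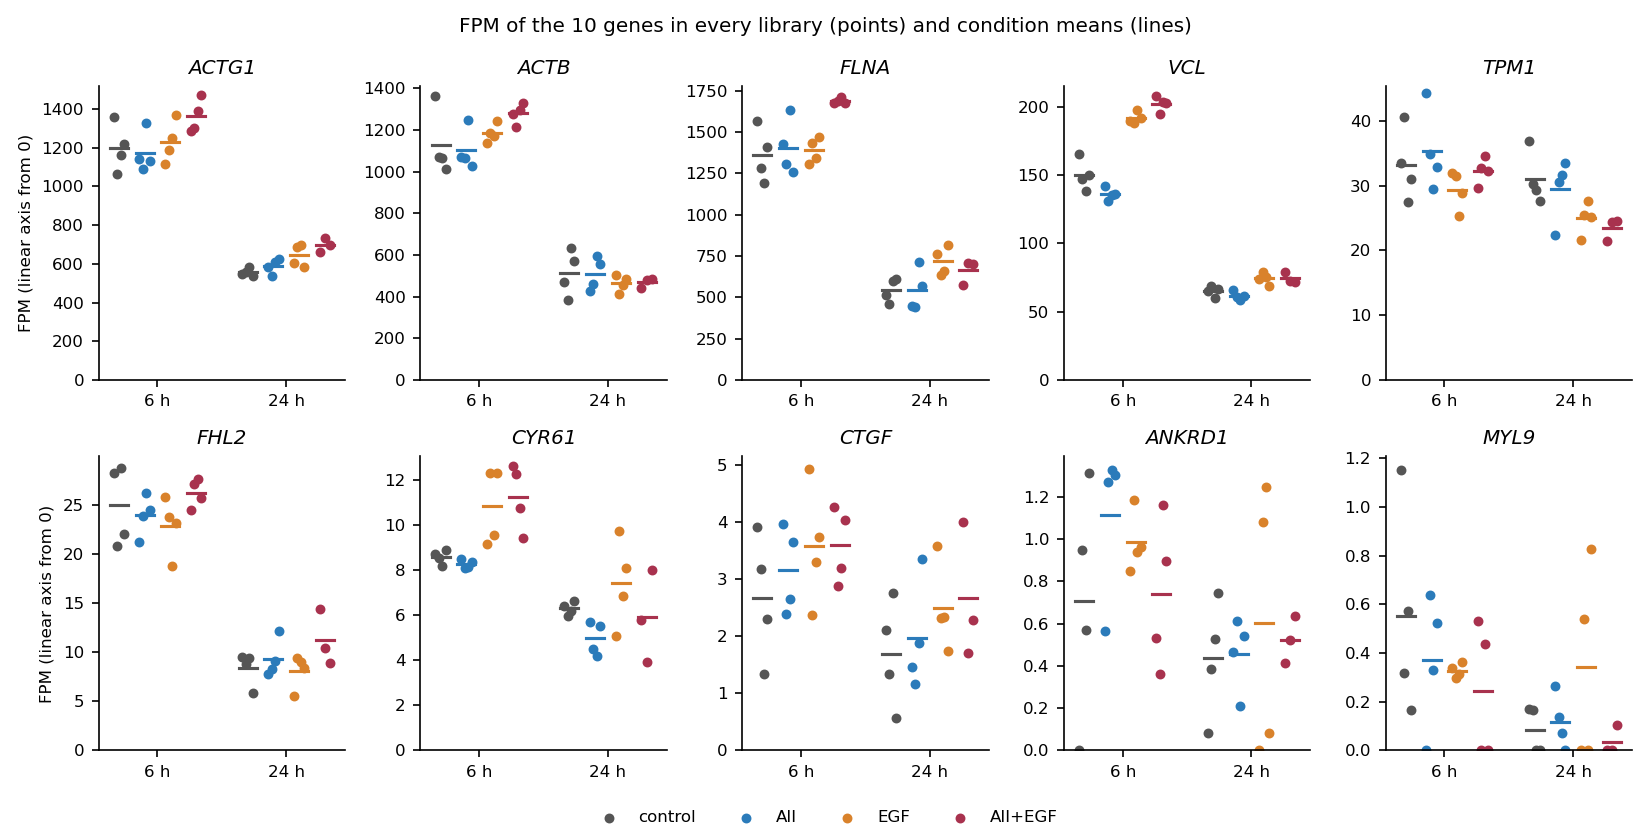
FPM (linear axes from 0) of each of the 10 genes in every library after 6 h and 24 h, with points coloured by condition and lines at the condition means. VCL after EGF (187.9 to 197.5 FPM) and AII+EGF (195.0 to 207.9 FPM) lies above all control and AII libraries after 6 h, and ANKRD1 and MYL9 lie near 0. FPM were scaled separately at 6 h and 24 h.

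VCL, which encodes vinculin, the protein that couples integrin and cadherin adhesions to actin filaments, was the member with the clearest response. VCL is on chromosome 10 (75754951 to 75881121, plus strand, GRCh37). After 6 h its control libraries held 165.9, 146.9, 138.2 and 149.8 FPM and its AII libraries 142.3, 131.3, 135.5 and 136.1 FPM. The EGF libraries held 189.7, 187.9, 197.5 and 191.9 FPM, and the AII+EGF libraries 207.9, 195.0, 204.0 and 203.2 FPM. Every library with EGF therefore lay above every library without it. VCL rose by 0.35 on the log2 scale after EGF (SE 0.065, FDR = 0.00158, edgeR quasi-likelihood test) and by 0.43 after AII+EGF (SE 0.065, FDR = 0.000156). The ratios of the means, 1.28 and 1.35, were below the 1.5-fold minimum of the study's rule, and VCL was for that reason not among the called genes. The exact permutation test of either stimulus against control gave p = 0.0286, the smallest that 4 against 4 libraries allow.

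The VCL response was present in each library series, the name used here for library numbers 1 to 8 and 9 to 16 of each table. The log2 ratio of EGF to control was 0.27 in series 1 and 0.43 in series 2, and that of AII+EGF to control 0.37 and 0.50, with 2 libraries a group and no overlap. AP3M1, a gene on the opposite strand, overlaps 11.1% of the VCL exon bases, and the strand setting of the counting is not given in the sources used here. AP3M1 itself changed by 0.13 after EGF (FDR = 0.456, edgeR) and 0.088 after AII+EGF (FDR = 0.684). The VCL effects kept FDR between 1.56e-09 and 0.00163 under the alternatives of normalization, filter and test.

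FLNA encodes filamin A, the crosslinker that ties actin filaments into networks and to integrins, and lies on chromosome X (153576892 to 153603002, minus strand). It was higher with both agents than with either alone. After 6 h its libraries held 1565, 1286, 1193 and 1412 FPM in control and 1428, 1305, 1632 and 1259 FPM after AII. They held 1310, 1435, 1343 and 1470 FPM after EGF and 1679, 1688, 1716 and 1677 FPM after AII+EGF. The AII+EGF libraries lay above all other 6 h libraries and had an SD of 17.99 FPM, whereas the other conditions overlapped. FLNA rose by 0.31 after AII+EGF against control (SE 0.082, FDR = 0.0233, edgeR), against 0.027 after EGF (FDR = 0.903) and 0.044 after AII (FDR = 0.989). AII+EGF against EGF gave 0.28 (SE 0.082, FDR = 0.677), which did not pass. The exact permutation test gave p = 0.0286 for AII+EGF against control, against AII and against EGF, the smallest possible.

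The FDR of FLNA for AII+EGF against control rested on few libraries, and its difference between AII+EGF and EGF moved with a property of the libraries. Without control replicate 2 or 3, or without AII+EGF replicate 3 or 4, the FDR of AII+EGF against control was 0.0725, 0.0890, 0.0687 and 0.0501. The FLNA transcript has 62.05% GC, the highest of the 10 genes against a median of 47.16% over protein-coding genes with a mean above 5 FPM after 6 h. A slope on transcript GC content was fitted to log2(FPM + 0.5) after subtracting each gene's mean over the libraries of that time. This slope, which is relative to the average library, differed between libraries. It was positive in all 4 AII+EGF libraries of 6 h (0.0074 to 0.137 log2 units per 10% GC). It was −0.170 to 0.0090 in the EGF libraries and −0.069 to 0.142 in the control libraries. With that slope as a covariate, FLNA was still higher after AII+EGF than in control (0.26, SE 0.052, FDR = 0.00196, edgeR), and the difference between AII+EGF and EGF was 0.14 (FDR = 1.0). Within the library series, AII+EGF exceeded control by 0.24 and 0.38 without overlap.

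**Figure D2:**
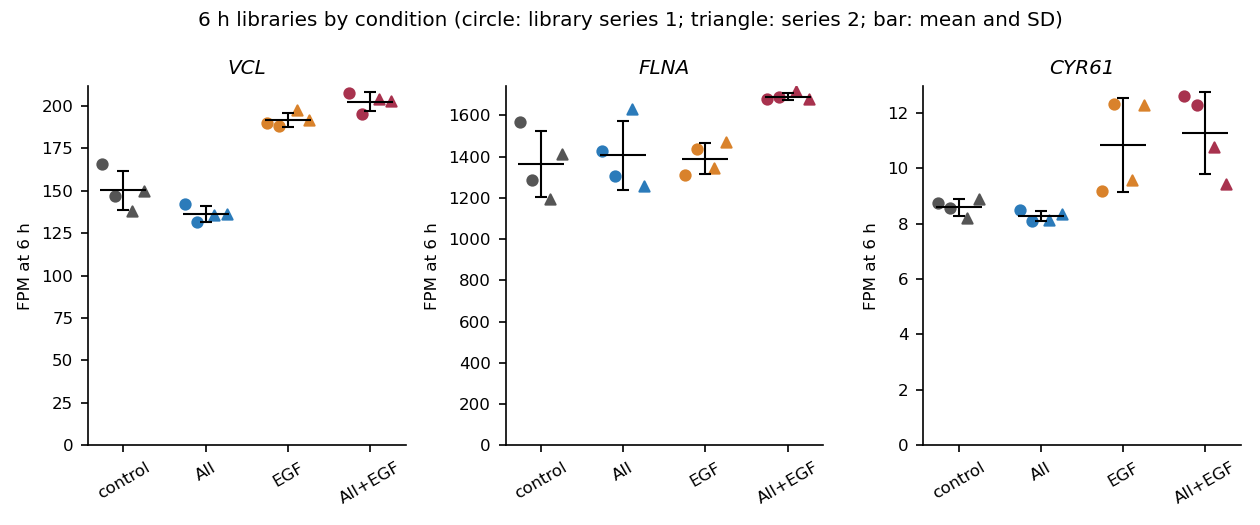
FPM of VCL, FLNA and CYR61 in the 6 h libraries by condition, with circles for library series 1, triangles for series 2 and bars for the mean and SD (n = 4, linear axes from 0). VCL separates into libraries with and without EGF, FLNA stands apart only after AII+EGF (1677 to 1716 FPM), and CYR61 is higher and more spread after EGF (9.18 to 12.3 FPM) than in control (8.19 to 8.87 FPM).

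ACTB and ACTG1, the 2 cytoplasmic actins from which stress fibres and the cortex are built, did not pass the test. ACTB (chromosome 7, 5566040 to 5603533, minus strand) held 1363, 1072, 1064 and 1013 FPM in control and 1278, 1214, 1298 and 1330 FPM after AII+EGF. Control replicate 1 lay above the AII+EGF range and the other control libraries below it. The difference was 0.18 (SE 0.081, FDR = 0.210, edgeR), and 0.071 after EGF (FDR = 0.686). Without control replicate 1 the AII+EGF difference was 0.29 (FDR = 0.00617). ACTG1 (chromosome 17, 79476439 to 79490873, minus strand) held 1358, 1063, 1161 and 1221 FPM in control and 1286, 1303, 1392 and 1472 FPM after AII+EGF. The groups overlapped through control replicate 1, with a difference of 0.18 (SE 0.081, FDR = 0.210) that became 0.25 (FDR = 0.0467) without it. Reads of the 2 actins and of their many pseudogenes can be exchanged, and the sum of all such rows differed by 0.18 after AII+EGF (FDR = 0.180, edgeR).

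TPM1, a tropomyosin that lies along actin filaments and stabilises them, did not pass the test either. TPM1 (chromosome 15, 63334819 to 63364114, plus strand) held 33.55, 40.56, 27.41 and 31.05 FPM in control after 6 h and 31.95, 31.47, 25.24 and 28.79 FPM after EGF. These ranges overlapped, with a difference of −0.18 (SE 0.13, FDR = 0.456, edgeR), and AII+EGF gave −0.041 (FDR = 0.908). Genes on the opposite strand, TPM1-AS among them, cover 22.7% of the TPM1 exon bases. FHL2 (chromosome 2, 105974169 to 106054970, minus strand) encodes a LIM-only protein that binds focal adhesions and SRF itself. Its 6 h levels ran from 18.81 to 28.74 FPM over control and EGF and from 24.50 to 27.64 FPM after AII+EGF, with differences of −0.11 after EGF (FDR = 0.661) and 0.084 after AII+EGF (FDR = 0.781).

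CYR61 and CTGF are secreted matricellular proteins of the CCN family that bind integrins. CYR61, now CCN1 (chromosome 1, 86046444 to 86050272, plus strand), held 8.73, 8.56, 8.19 and 8.87 FPM in the 6 h control libraries and 8.50, 8.11, 8.12 and 8.34 FPM after AII. It held 9.18, 12.3, 9.56 and 12.3 FPM after EGF and 12.6, 12.3, 10.8 and 9.41 FPM after AII+EGF. All libraries with EGF lay above all without it, as for VCL. The differences of 0.34 (SE 0.15, FDR = 0.196, edgeR) after EGF and 0.38 (SE 0.15, FDR = 0.154) after AII+EGF did not pass across all genes at 32 to 102 counts per library, and the exact permutation p of each was 0.0286. Within the library series the log2 ratio was 0.31 and 0.36 after EGF and 0.52 and 0.24 after AII+EGF.

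CTGF, now CCN2 (chromosome 6, 132269316 to 132272512, minus strand), had 7 to 31 counts per 6 h library, which limited what could be seen. Its control libraries held 3.91, 3.17, 1.33 and 2.30 FPM, those after EGF 4.93, 2.38, 3.29 and 3.73 FPM, and those after AII+EGF 4.26, 2.89, 3.20 and 4.03 FPM. The groups overlapped. The differences, 0.43 (SE 0.30, FDR = 0.461, edgeR) and 0.44 (SE 0.30, FDR = 0.476), were as large as those of VCL with an error more than 4 times as large. ANKRD1 (chromosome 10, 92671853 to 92680844, minus strand) lay between 0 and 1.33 FPM in all 6 h libraries, and MYL9 (chromosome 20, 35169900 to 35179850, plus strand) between 0 and 1.15 FPM, so a change of either was not detectable at this depth.

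Counted under the study's rule (FDR below 0.05, fold change above 1.5, mean above 5 FPM in the higher group), none of the 10 genes was called in any comparison. The rule called 1.73% of all genes for EGF against control after 6 h and 1.95% for AII+EGF. On FDR alone, where 5.97% and 6.10% of all genes passed, 1 member passed for EGF (VCL) and 2 for AII+EGF (VCL and FLNA) of the 8 tested. At an unadjusted p below 0.05 the edgeR test gave 2 members for EGF and 5 for AII+EGF, of 8 tested, where 20.2% and 18.9% of all genes lay below that p, and DESeq2 also called no member under the study's rule. The median difference of the 8 tested genes was 0.054 after EGF and 0.25 after AII+EGF, beside −0.012 and −0.014 over all genes. These medians were taken without the GC slope as a covariate. With it, the EGF differences of ACTB, ACTG1 and FLNA were larger (0.157, 0.132 and 0.124). Their AII+EGF differences were smaller (0.138, 0.130 and 0.262), and the other tested members moved less. Libraries did not overlap, with the stimulated ones above, for CYR61 and VCL after EGF (6.61% of all genes) and for CYR61, FLNA and VCL after AII+EGF (6.77%). No member lay wholly below control, against 5.43% and 5.37% of all genes.

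**Figure D3:**
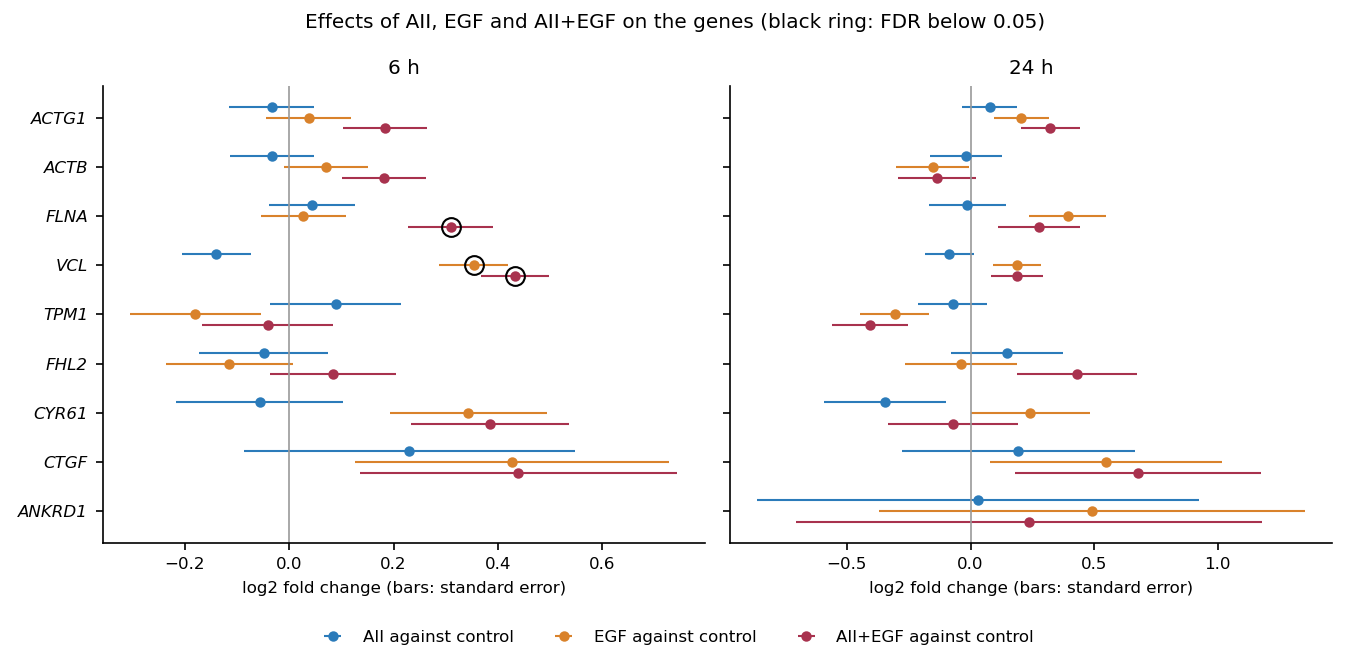
Log2 fold change against control, with bars of 1 standard error, for the members that passed the filter on low counts (9 of 10 after 24 h, 8 after 6 h, where ANKRD1 has no value) in AII, EGF and AII+EGF. Black rings mark FDR below 0.05, which only VCL (EGF and AII+EGF) and FLNA (AII+EGF) reached, at 6 h. The scales of the panels differ.

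AII alone called no member and 0% of all genes at either time, with 845 genes at an unadjusted p below 0.05 after 6 h and 551 after 24 h (edgeR), and 0 by DESeq2. The 8 tested members ran from −0.14 (VCL) to 0.23 (CTGF) after 6 h, 3 of them above 0. VCL after AII lay below the lowest control library in 3 of 4 libraries, with an FDR of 0.987. No member's AII libraries stood apart from control after 6 h, where 0.978% of all genes lay wholly above and 1.16% wholly below.

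The question whether AII adds to EGF was addressed by AII+EGF against EGF and by the interaction. The interaction is the departure of AII+EGF from the sum of the separate log2 effects. Neither called a member, and both called 0% of all genes (0 by DESeq2), with 1350 and 1491 genes at an unadjusted p below 0.05 after 6 h and 748 and 525 after 24 h (edgeR). All 8 tested members were higher after AII+EGF than after EGF, by 0.013 (CTGF) to 0.28 (FLNA), with a median of 0.13 against 0.00026 over all genes. These members share libraries, so they are not 8 separate observations. With the GC slope as a covariate the actins were no longer higher after AII+EGF. Against control, ACTB differed by 0.157 after EGF and 0.138 after AII+EGF, and ACTG1 by 0.132 and 0.130. The other tested members kept a higher value after AII+EGF than after EGF with that covariate. FLNA alone did not overlap (2.85% of all genes lay wholly above and 2.73% wholly below), and its smallest alternative FDR, 0.0380, came without the filter on low counts. The interaction was 0.22 for VCL (SE 0.093, FDR = 0.600, edgeR) and 0.24 for FLNA (SE 0.12, FDR = 0.623), and 7 of 8 members were above 0 after 6 h. After 24 h no member's AII+EGF libraries stood apart from those of EGF, where 2.81% of all genes lay wholly above and 2.27% wholly below. With the GC slope as a covariate the 6 h interactions became 0.16 for VCL and 0.054 for FLNA.

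After 24 h no member was called or passed on FDR, where the rule called 0.0316% of all genes for EGF and 0.0271% for AII+EGF, and 2 of 9 members had an unadjusted p below 0.05 in each, beside 8.48% and 5.40% of all genes (edgeR). FLNA held 512.3, 461.8, 601.1 and 613.7 FPM in control and 762.6, 633.8, 662.4 and 815.7 FPM after EGF, without overlap. Its difference was 0.39 (SE 0.16, FDR = 0.484), and with the GC slope as a covariate 0.34 (SE 0.078, FDR = 0.0416). After AII+EGF its 576.4, 708.3 and 704.9 FPM overlapped control (0.28, FDR = 0.977).

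VCL did not pass the test after 24 h. Its 24 h libraries held 65.3, 68.8, 60.3 and 66.9 FPM in control, 74.2, 79.1, 75.4 and 68.8 FPM after EGF and 78.9, 72.4 and 72.1 FPM after AII+EGF. The EGF libraries met the control range at its top and the AII+EGF libraries lay above it, with differences of 0.19 in each (FDR = 0.632 and 0.969, edgeR).

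TPM1 held 36.9, 30.2, 29.3 and 27.7 FPM in control, 21.7, 25.5, 27.6 and 25.2 FPM after EGF and 21.4, 24.3 and 24.5 FPM after AII+EGF. Every library with EGF lay below every control library, and the differences were −0.31 (SE 0.14, FDR = 0.558, edgeR) and −0.41 (SE 0.15, FDR = 0.839). ACTG1 stood wholly above control after AII+EGF (661.4 to 732.6 against 538.5 to 584.6 FPM, difference 0.32, FDR = 0.825). CYR61 stood wholly below control after AII, with 5.70, 4.50, 4.17 and 5.52 FPM against 5.98 to 6.65 FPM (−0.35, FDR = 1.0). Of all genes, 2.35% lay wholly above and 2.08% wholly below control after EGF, 3.99% and 3.19% after AII+EGF, and 1.00% and 0.974% after AII. The members that stood apart, of 9 tested, were 1 above and 1 below control after EGF, 2 above and 1 below after AII+EGF and 1 below after AII. The exact permutation test of AII+EGF with 3 libraries cannot go below 0.0571.

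The other members were less precise after 24 h. CTGF differed by 0.55 after EGF (SE 0.47, FDR = 0.818, edgeR) and by 0.68 after AII+EGF (SE 0.50, FDR = 0.997). FHL2 was 0.47 higher after AII+EGF than after EGF (SE 0.24, FDR = 1.0), its libraries at 14.4, 10.5 and 8.92 FPM against 5.53 to 9.42 FPM. ANKRD1 differed by 0.49 after EGF with an SE of 0.86.

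The change of an effect between 6 h and 24 h was tested in a joint fit of 21932 genes, which called 0.164% of them for EGF, 0.123% for AII+EGF and 0% for AII (842 at an unadjusted p below 0.05, 0 by DESeq2), and no member. A call in this fit needed an FDR below 0.05 and a difference above 1.5-fold, with no minimum of FPM. The 24 h effect minus the 6 h effect was −0.17 for VCL under EGF (FDR = 0.631, edgeR) and −0.26 under AII+EGF (FDR = 0.580). FLNA differed by 0.37 for EGF (FDR = 0.515) and −0.050 for AII+EGF (FDR = 0.987). CYR61 under AII+EGF differed by −0.47 (FDR = 0.751), TPM1 by −0.39 (FDR = 0.679) and ACTB by −0.34 (FDR = 0.707). The levels themselves were not compared between the times, because time and table cannot be told apart.

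Between libraries of the same condition the actins and FLNA varied together after 6 h. Deviations of log2(FPM + 0.5) from the condition means were correlated for all 64 pairs of tested members over both times, and 7 pairs passed by Pearson's r and 1 by Spearman's ρ (permutation test, adjusted over 128 relations). After 6 h, over 16 libraries, ACTB and ACTG1 gave r = 0.76 and ρ = 0.65 (permutation p = 0.00039 and 0.00776, adjusted p = 0.0166 and 0.0828). ACTB and FLNA gave 0.77 and 0.60 (permutation, adjusted p = 0.0211 and 0.147), and ACTG1 and FLNA 0.75 and 0.69 (permutation, adjusted p = 0.0220 and 0.0543). VCL and CTGF gave 0.73 and 0.61 (permutation, adjusted p = 0.0220 and 0.147). Without the 2 libraries farthest from the median these r fell to 0.56, 0.42, 0.52 and 0.46, so they rest in part on those libraries. Within the library series they were 0.95 and 0.85, 0.88 and 0.69, 0.96 and 0.89, and 0.62 and 0.66. A condition had only 2 libraries in a series, whose deviations from their mean mirror each other. These r therefore rest on 1 difference per condition, and a permutation of single libraries cannot test them.

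After 24 h, over 15 libraries, ACTB and FLNA gave r = 0.86 and ρ = 0.87 (permutation, adjusted p = 0.00832 for each) and r = 0.92 without the 2 farthest libraries. VCL ran against both, with r = −0.73 and ρ = −0.68 with ACTB (permutation, adjusted p = 0.0368 and 0.0794) and r = −0.73 and ρ = −0.68 with FLNA (permutation, adjusted p = 0.0402 and 0.0794). Without the 2 farthest libraries these were −0.63 and −0.72. Within series 1 and 2, r was 0.90 and 0.60 for ACTB and FLNA, −0.89 and −0.96 for ACTB and VCL, and −0.66 and −0.60 for VCL and FLNA. These too rest on 1 difference per condition and were not tested, and AII+EGF with its 1 library added none in series 1. After 24 h ACTG1 gave r = 0.13 with ACTB (−0.79 and −0.16 within series) and r = 0.13 with FLNA (−0.72 and −0.69), both at adjusted p = 0.961 (permutation).

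These pairs also moved with the GC slope of the libraries. The deviations of FLNA correlated with the slope at r = 0.88 after 6 h and 0.97 after 24 h, those of ACTB at 0.80 and 0.87, those of ACTG1 at 0.89 and 0.18, and those of VCL at 0.49 and −0.79. The transcript GC content was 62.05% for FLNA, 56.5% for ACTB, 53.71% for ACTG1 and 45.07% for VCL. The slope is a fit over the genes of the same libraries, so these values are a description. After 24 h the slope was −0.175 to 0.057 in library series 1 and −0.017 to 0.189 in series 2. It was above 0 in series 1 only for EGF replicate 1, and below 0 in series 2 only for EGF replicate 3. All 24 h columns of series 1 are named filtered, and in series 2 only that of AII+EGF replicate 3. The part of the series in the 24 h correlations was not tested. With the slope as a covariate, r after 6 h was 0.18 for ACTB and ACTG1, 0.23 for ACTB and FLNA and −0.18 for ACTG1 and FLNA, and after 24 h 0.094, −0.16 and 0.27 for ACTB and FLNA, ACTB and VCL, and VCL and FLNA. VCL and CTGF gave 0.82 (permutation, adjusted p = 0.0096), the 1 pair that then passed.

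**Figure D4:**
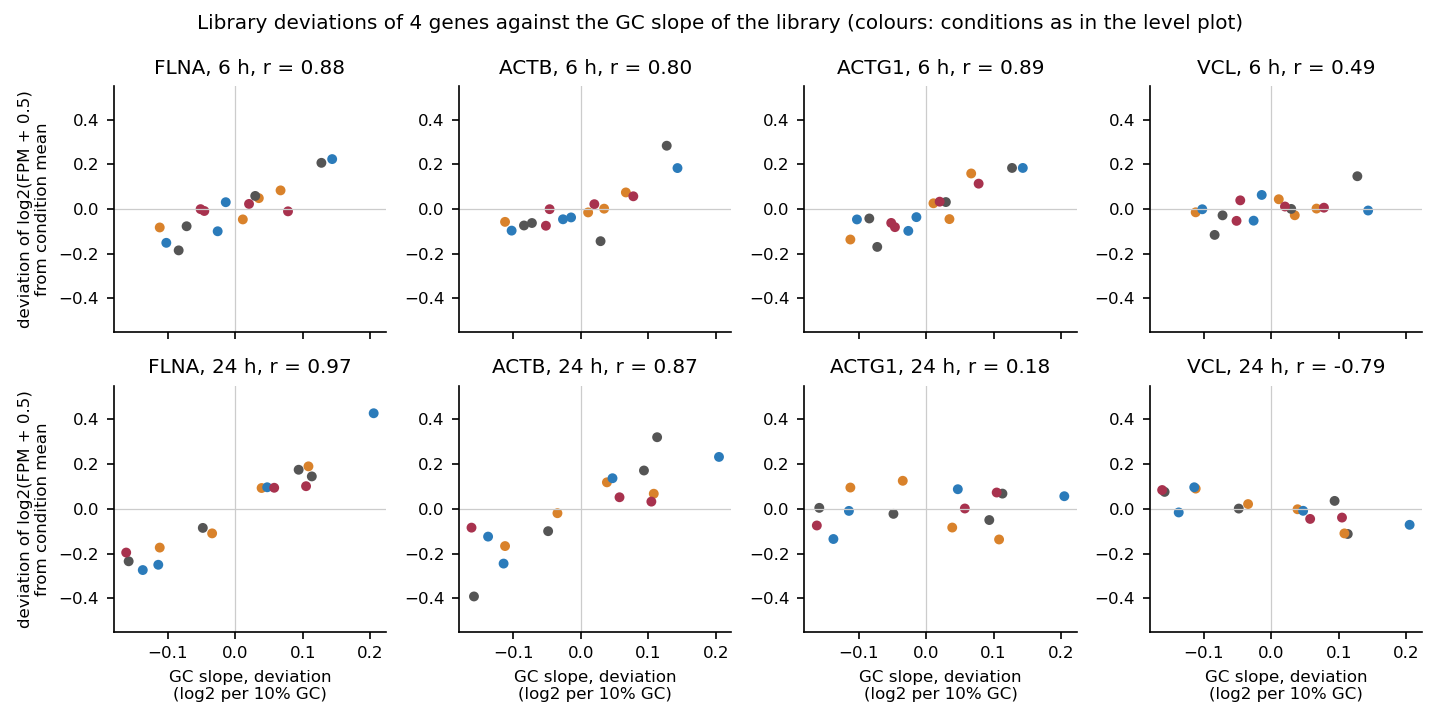
Deviation of log2(FPM + 0.5) of FLNA, ACTB, ACTG1 and VCL from the condition mean against the deviation of the library's GC slope (log2 units per 10% transcript GC), 1 point per library, grey for control, blue for AII, orange for EGF and red for AII+EGF. FLNA and ACTB rise with the slope at both times (r = 0.88 and 0.97, 0.80 and 0.87), and VCL falls with it after 24 h (r = −0.79).

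The genes whose pattern was most like each member were found by Pearson's r of log2(FPM + 0.5) over the 16 libraries of 6 h among 11220 protein-coding genes above 5 FPM, as a description that includes the differences between conditions. VCL was most like HSPA8 (r = 0.97), TUBB6 (0.96) and PTRF (0.96), and over the 24 h libraries these gave −0.23, −0.099 and 0.43. FLNA was most like CTBP1 (0.95), PPP6R1 (0.94) and PTPRF (0.93), which gave 0.79, 0.84 and 0.79 after 24 h. ACTG1 was most like LETM1 (0.96), DNAJC5 (0.96) and TMEM8A (0.95), and ACTB most like SCFD2 (0.93), PLEC (0.92) and C19orf24 (0.91). CYR61 was most like SALL2 (0.89), MSI1 (0.88) and NOMO1 (0.87). For TPM1 (B3GNTL1, GAS7 and PLN), FHL2 (ACTN2, GPR155 and NRDE2), CTGF (NRGN, MANBA and MAN1A1) and MYL9 (IDS.1, FGFR1OP2 and TAF1A) the highest r was 0.80. ANKRD1 was most like NRBF2 (0.90), KRTCAP2 (0.88) and TOMM5 (0.84), at 0 to 8 counts per library.

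Of the factors themselves, SRF was at 71.1 ± 5.40 FPM in control, 66.0 ± 3.44 after AII, 69.1 ± 6.497 after EGF and 69.5 ± 6.83 after AII+EGF (6 h, SD, n = 4), and these overlapped. YAP1 was at 70.0 ± 7.76, 67.8 ± 2.59, 86.0 ± 7.62 and 82.3 ± 1.92 FPM and rose by 0.29 after EGF (SE 0.082, FDR = 0.0312, edgeR), with 0.23 after AII+EGF (FDR = 0.111). EGFR rose from 45.3 ± 4.84 FPM in control to 57.6 ± 5.23 after EGF (0.35, FDR = 0.0319) and 60.1 ± 5.14 after AII+EGF (0.41, FDR = 0.0123). Of the 14 tested of 15 genes for SRF, its cofactors, YAP, TAZ, TEAD and LATS, none was called. On FDR alone ELK1, a ternary complex factor, rose by 0.39 after EGF (FDR = 0.00547) and by 0.51 after AII+EGF (FDR = 0.000347), as did YAP1 after EGF.

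Further cytoskeletal targets of MRTF-SRF, 34 tested of a list of 35, gave few calls. After 6 h the rule called none for EGF and 1 for AII+EGF, ZYX, which encodes the focal adhesion protein zyxin. ZYX went from 28.7 ± 1.85 FPM to 41.0 ± 4.19 after EGF (0.51, FDR = 0.00293, edgeR) and 44.2 ± 4.08 after AII+EGF (0.62, SE 0.10, FDR = 0.000355), and with the GC slope as a covariate no gene of the list was called. On FDR alone 3 were higher after EGF (CNN3, PDLIM5 and ZYX). After AII+EGF 7 were higher, namely ACTN1, ACTN4, CNN3, FLNC, PFN1, TPM4 and ZYX, with values of 0.26 to 0.62. Those other than ZYX are named after their values were seen. The medians of the list were 0.095 after EGF and 0.14 after AII+EGF.

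Further YAP-TEAD targets, 17 tested of 20, gave 1 call for AII+EGF, F3, which encodes tissue factor (1.07, SE 0.29, FDR = 0.0292, edgeR, from 2.77 ± 1.19 to 5.69 ± 1.29 FPM). This call was lost without any 1 of control replicates 2, 3 and 4 or AII+EGF replicates 1 and 3. The medians were 0.042 after EGF and 0.12 after AII+EGF. Among 12 tested of 18 relatives of the members (other actin, tropomyosin, FHL, filamin, CCN and myosin light chain genes, ANKRD2 and CTNNA1), the rule called NOV, a CCN gene, for AII+EGF (0.74, SE 0.097, FDR = 3.16e-05). NOV went from 28.8 ± 3.31 FPM in control to 41.7 ± 2.64 after EGF (0.53, FDR = 0.00155) and 48.3 ± 2.99 after AII+EGF. FLNC and TPM4 were the other relatives past FDR after AII+EGF, and they also belong to the cytoskeletal list.

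The immediate early genes of the ternary complex arm of SRF had the highest medians of the 5 lists after 6 h (0.39 after EGF and 0.57 after AII+EGF). Of 11 tested of 12, the rule called 4 after EGF (EGR1, EGR3, FOS and ARC) and 5 after AII+EGF (with JUNB), all higher. EGR1 went from 2.23 ± 0.717 to 51.2 ± 3.60 FPM after EGF (4.48, SE 0.17, FDR = 2.37e-14, edgeR) and 57.3 ± 8.47 FPM after AII+EGF (4.64). FOS rose by 2.34 and 2.68, EGR3 by 2.74 and 3.13, and ARC by 2.55 and 3.43. JUNB differed by 0.39 after EGF (FDR = 0.283) and rose by 0.66 after AII+EGF (FDR = 0.0485). After 24 h EGR1 was the 1 gene called in all these lists (2.53 after EGF and 2.95 after AII+EGF). The EGR1 effect was smaller after 24 h than after 6 h (−1.96 for EGF, FDR = 0.000348, and −1.72 for AII+EGF, FDR = 0.00408, edgeR). The VCL rise of 0.35 after EGF at 6 h stands beside a rise of 4.48 for EGR1 in the same libraries.

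**Figure D5:**
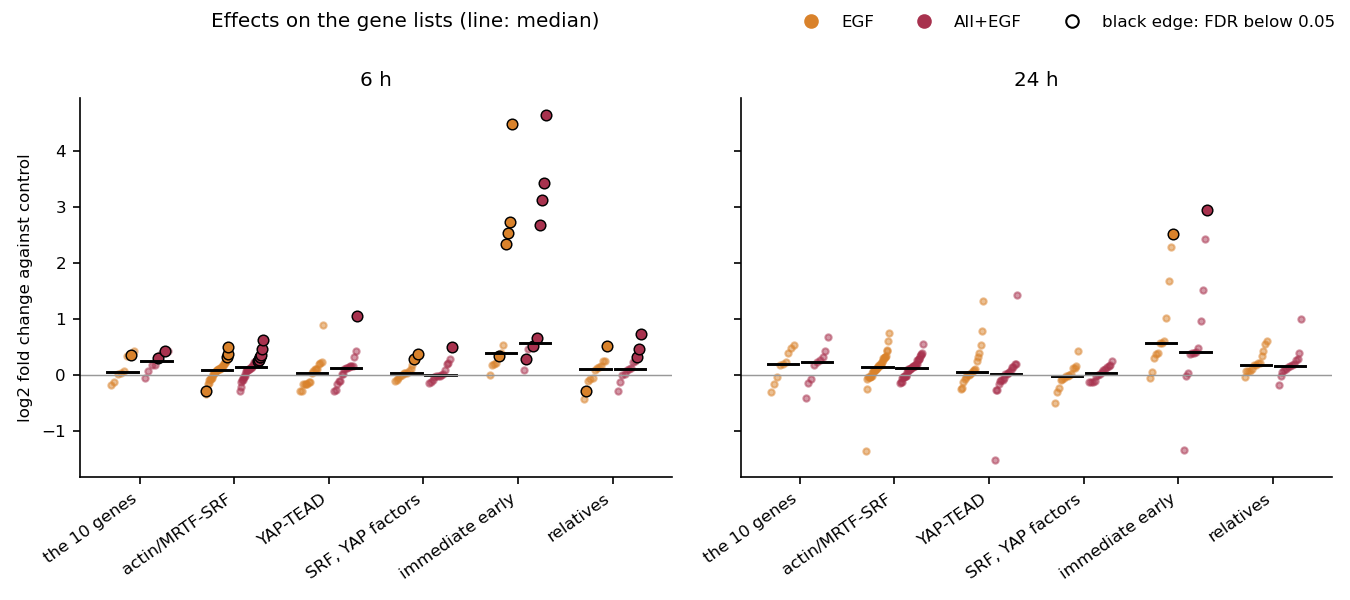
Log2 fold change against control of every tested gene of the 10 members and of 5 lists after EGF and AII+EGF, with black edges for FDR below 0.05 and black lines at the medians. After 6 h the immediate early genes reach 4.48 and 4.64 (EGR1), while the members stay between −0.18 and 0.44, and after 24 h EGR1 is the 1 gene past FDR.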

How the data were processed

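RNA of 32 samples was sequenced, and 31 were analysed. The values are whole-number read counts per gene deposited by the authors, who, per the labels and methods, trimmed reads with cutadapt 1.8.1, mapped them to hg19 with TopHat2 2.0.14 (the design text names HISAT2) and counted with featureCounts 1.4.6. The strand setting was not given in the sources used here. Of 15 columns of 24 h, 8 are named filtered, without explanation. The 10 genes and the lists were chosen with earlier results of these data known. From the counts, edgeR 4.0.16 (R 4.3.3) was run with filterByExpr, TMM and 1 quasi-likelihood fit per time over 4 conditions, with FDR over all genes, as well as a joint fit. FPM were TMM-scaled. Calls followed the study's rule, except that the joint fit had no minimum of FPM. Single comparisons used 2-sided exact permutation tests, and correlations used 100000 resamples. Alternatives were DESeq2 1.42.0, DESeq2 size factors, no filter, protein-coding genes, FDR alone, summed actin rows, the library series as a block and leaving out libraries. The GC slope was added after seeing the data. It was fitted over protein-coding genes with a mean above 5 FPM, and GC was known for 98.73% (6 h) and 98.78% (24 h) of these. List genes were named where called, or else by smallest FDR. A few items are not reported here. The edgeR step was tested on simulated data. No 2 replicates agreed within sampling noise, with a chi-square per gene of at least 2.07.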

Additional observations from a re-analysis of the deposited data

Results flagged for a closer look

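In a comparison of the highest and lowest library of each condition with the rest of its group, 2 of 70 groups stood out, where chance gives about 1 in 20, or 3.5. ACTB in control replicate 1 after 6 h was at 1362.82 FPM and the other control libraries at 1013.29 to 1072.08 FPM, so the gap was 0.832 of the range of the group. The same library has the highest GC slope of the 6 h libraries (0.142 log2 units per 10% GC), whose part in the value was not tested. ANKRD1 in AII replicate 1 after 6 h was at 0.567 FPM (3 counts) and the other AII libraries at 1.27 to 1.33 FPM, a gap of 0.929 of the range.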

How the results depend on the processing

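Of 1005 alternative values for 40 effects of the members, 988 kept their direction and their side of FDR 0.05. Of the others, 9 turned direction, 4 lost and 4 gained an FDR below 0.05, and the causes were not tested. On FDR alone 1 member passed for EGF and 2 for AII+EGF after 6 h, and under all other alternatives none was called. No paired analysis was possible because replicate numbers are absent from the labels. Leaving out 1 library each turned the direction of small effects, with ranges of −0.012 to 0.11 for ACTG1, EGF against control, 6 h, −0.029 to 0.10 for FLNA, EGF against control, 6 h, −0.12 to 0.080 for TPM1, AII+EGF against control, 6 h, −0.17 to 0.55 for CTGF, AII against control, 24 h, and −0.13 to 0.044 for FLNA, AII+EGF effect, 24 h minus 6 h. Of all 64 pairs, 7 passed over all libraries and 1 with the GC slope as a covariate (VCL and CTGF, 6 h, which is among the 7). The same permutation put 6 pairs within library series 1 and 3 within series 2 below an adjusted p of 0.05. These counts within series are not a test result and no conclusion is drawn from them. A condition had no more than 2 libraries in a series, whose deviations mirror each other, so a permutation of single libraries cannot test these pairs. With the GC slope the correlation of ACTG1 and FLNA, 6 h, turned to −0.18 and that of VCL and FLNA, 24 h, to 0.27. The number of all genes called after 6 h was 322 for EGF and 363 for AII+EGF and ranged over 320 to 367 and 359 to 396, or 1112 and 1136 on FDR alone. After 24 h it was 7 and 6 and ranged over 7 to 72 and 6 to 121, and for the change with time it was 36 and 27 and ranged over 36 to 91 and 19 to 123. Without the filter on low counts, the calls after 6 h and 24 h were 17 and 20 for AII, 10 and 61 for AII+EGF against EGF, and 48 and 19 for the interaction, with 25 for AII over time, where the edgeR test with the filter gave 0 in each. Depth limited MYL9, ANKRD1 and CTGF most.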
